A study of Homo sapiens with 2 samples.

Results

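The TRF2 peaks of the chromosome 13 centromere are the largest group of peaks on any one centromere in this list from HCT116, a human colorectal carcinoma cell line. Members were taken by position alone, as peaks whose summit lay in the cytogenetic centromere bands p11.1 and q11 of chromosome 13, from 16500000 to 18900000 on hg38, and 3317 of the 24258 peaks in the list qualified (13.7%). The study compared 1 library immunoprecipitated (IP) with an anti-TRF2 antibody against 1 input library, both from HCT116 chromatin fixed with 1% formaldehyde 72 h after plating and sonicated to about 300 to 400 bp, with 5 μg of antibody per 100 μg of chromatin in the IP. The labels give no treatment, whereas the deposited list carries a control siRNA tag in its own name, and these sources do not say if a transfection took place. Peak calls hold no marker of the cell type, so the cell line is given as labelled. With 1 library of each kind no difference between samples could be tested. Every interval below covers counting error only, and peaks of one array are not independent of each other.

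TRF2 is a subunit of shelterin, the complex that coats the double-stranded repeats of telomeres and keeps chromosome ends from being handled as breaks. Human centromeres are built of alpha satellite, a short AT-rich monomer repeated head to tail, whose monomers are in turn organised in higher-order units that recur along an array with few differences. The hg38 assembly holds these arrays as modelled sequence, and the arrays of chromosomes 13 and 21 belong to one closely related family. Reads from such repeats can align equally well to many places. How the submitters treated reads with several equally good positions, and whether any array was masked in the genome they aligned to, is unknown here.

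TRF2 summits formed a nearly even carpet over the lower part of the band and were almost missing from the rest. When neighbouring summits no more than 5 kb apart were joined, 3310 of the 3317 members (99.8%) fell in 1 unbroken stretch. It ran from the first member of the band, starting at 16500533, to an end at 18051222. Only 7 members lay in the remaining 849 kb up to the end of the band. Within the stretch the peaks covered 45.8% of the sequence. The longest run of sequence without a peak was 1945 bp, from 17747160 to 17749104, and 35 of the 3309 gaps between neighbouring peaks exceeded 1 kb.

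The number of summits varied little along the stretch. The 15 windows of 100 kb that it filled held 191 to 234 summits each, with a mean of 214 and an SD of 11.2 over windows. Their variance was 0.582 times their mean. The smallest gap between listed intervals, 75 bp, and the smallest width, 69 bp, limit how many summits a window can hold. Their effect on this ratio was not tested. The densest windows were the third of the band, from 16700001 to 16800000, with 234 summits, the first with 230, and the sixth, from 17000001 to 17100000, with 224. The sparsest was the tenth, from 17400001 to 17500000, with 191. The strongest peak of the densest window, at 16787894 to 16788247, had a fold over input of 13.4, that of the first window reached 10.9 and that of the sixth 12.3. Peaks covered between 37.1% and 49.3% of each filled window. The densest windows making up 25% of the band held 40.5% of the members, and 5 of the 24 windows of the band were empty.

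**Figure D1:**
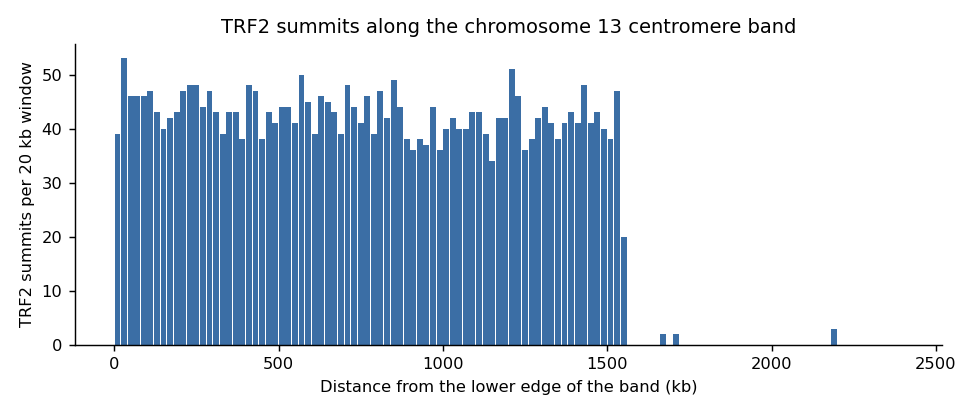
Summits per 20 kb window (bars, vertical axis) against the distance from the lower edge of the centromere band in kb (horizontal axis), for all 3317 members. The 77 windows filled by the stretch hold 34 to 53 summits each, the stretch ends at 1551 kb, and 7 members lie beyond it.

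The lower edge of the band was not an edge of the carpet. The member nearest to it, at 16500533 to 16500791, had a fold of 5.94 with 15 IP reads over an input background of 1.69, and the nearest peak outside, at 16499689 to 16499967, had a fold of 5.26 with 28 reads over 4.51. The first 200 kb of the band held 445 peaks and the 200 kb below it 447. Taken over the whole chromosome, the same stretch held 3800 peaks and began at 16279203, a length of 1772 kb. Farther down, from 400 to 200 kb below the band, there were 220 peaks. At the other edge the last member lay 219 kb inside the band, and the nearest peak outside it lay 676 kb beyond, at 19576189 to 19576257, with a fold of 4.70 and 9 reads.

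By cytogenetic band, p11.1 held 2572 summits, or 2143 per Mb (exact Poisson 95% interval 2061 to 2228), and q11 held 745, or 621 per Mb (577 to 667). Both bands are 1.2 Mb long. The lower count in q11 followed from where the stretch stopped, since the windows of q11 inside the stretch held 207 to 213 summits per 100 kb and those of p11.1 held 191 to 234.

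Neighbouring summits were well under 1 kb apart in most cases. Across all 3316 neighbouring pairs the median distance was 414 bp, with quartiles of 292 and 583 bp. The shortest was 108 bp. Inside the stretch the distance averaged 469 ± 246 bp (SD over 3309 pairs), most often fell between 300 and 350 bp (370 pairs), and passed 1 kb in 132 pairs (3.99%). The lower end of this distribution is set in part by the peak calling. No intervals in the whole list lie less than 75 bp apart, measured from end to start, so closer intervals would be listed as 1 peak. Since every interval is at least 69 bp wide, summits more than 75 bp apart could also be merged in this way.

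A tandem repeat could place summits at a recurring distance, so the positions were examined for one. Over distances of 1 to 10 kb, 63455 pairs of members fell in 900 bins of 10 bp, with 70.5 pairs per bin on average and 45 to 96 in single bins. The variance of these counts was 1.05 times their mean, and the fullest bin was at 7480 to 7490 bp. Repeat lengths from 100 to 6000 bp were then tried in steps of 0.25 bp, scoring how far the summits shared a phase on a scale where 0 means no shared phase and 1 means that every summit sits at the same phase. The best length was 293 bp, with a score of 0.0452. Other subsets gave other lengths. The 1783 members at a −log10 q of at least 5 gave 506 bp (score 0.0642), the summits of p11.1 gave 174 bp (0.0523) and those of q11 gave 230.0 bp (0.0975). No single repeat length was therefore shared by these subsets among the lengths tried. The best of 23600 trial lengths scores above 0 even for summits without a repeat, and higher for smaller sets. That level is not given beside these scores, so none of these lengths is read as a repeat. Steps of 0.25 bp are coarse for short lengths, because a small error in length adds up along the stretch. A short repeat, such as a monomer, that fell between the steps could be missed. The pair counts above start at 1 kb, so no conclusion about a monomer repeat is drawn. A repeat whose copies differ in length would not be detectable by this score.

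**Figure D2:**
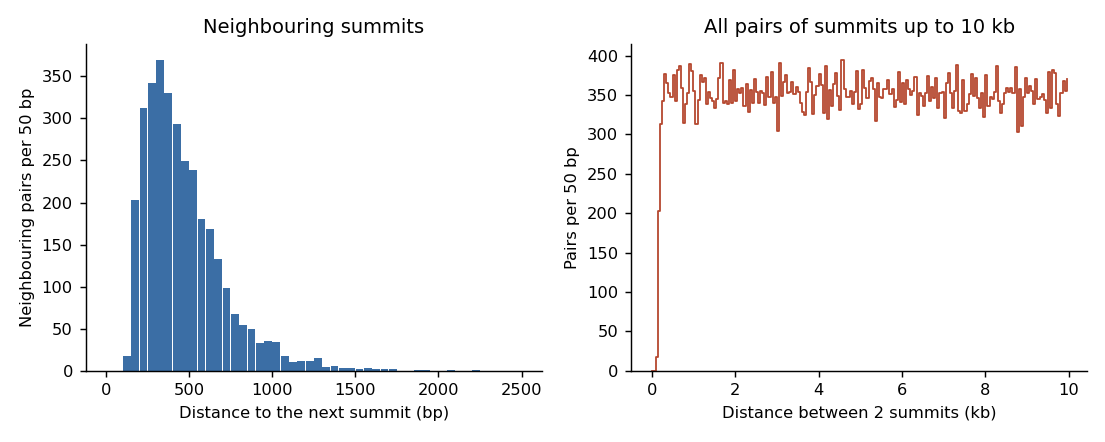
Left, number of neighbouring pairs (vertical axis) by the distance to the next summit in bp (horizontal axis) within the stretch, in bins of 50 bp; the fullest bin, 300 to 350 bp, holds 370 pairs. Right, number of all pairs of members per 50 bp of distance (vertical axis) up to 10 kb (horizontal axis, kb), which stays between 303 and 395 pairs from 1 kb on.

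Members were wider than the rest of the list. Their widths had a median of 170 bp, with quartiles of 107 and 276 bp and a range of 69 to 1644 bp, while all other peaks had a median of 98 bp with quartiles of 73 and 147 bp. Among those others, the 447 peaks in the 200 kb below the band had a median of 169 bp. The smallest width the list allows, 69 bp, was that of 126 members (3.80%, exact binomial interval 3.17% to 4.51%), against 19.3% of all other peaks. The 3 widest members ran from 17927225 to 17928868 (1644 bp, fold 5.99, 32 reads), from 17841925 to 17843490 (1566 bp, fold 5.86, 28 reads) and from 18006829 to 18008211 (1383 bp, fold 6.81, 25 reads). In all 6 members reached 1000 bp, 4 of them above 17467996 and 2 below it. Wide members were also deeper: the widest 829 members had a median of 21 IP reads and the narrowest 830 had 15. At a −log10 q of 5 or more were 73.5% of the widest 829 members and 38.1% of the narrowest 830.

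The fold over input, the authors' ratio at each summit, had a median of 4.79 over members (quartiles 3.88 and 5.94, range 1.97 to 17.8) and of 3.90 over all other peaks (quartiles 3.41 and 4.88). A fold of 5 or more was reached by 1481 members (44.6%, exact interval 42.9% to 46.4%), against 22.1% of all other peaks and 25.2% of the whole list. A −log10 q of 5 or more was reached by 1783 members (53.8%, exact interval 52.0% to 55.5%), against 26.3% of the other peaks and 30.0% of the whole list. A q-value under 0.05 was met by 3151 members (95.0%, 94.2% to 95.7%), against 76.9% of the other peaks and 79.3% of the whole list. Members were thus more often past each of these limits than the rest of the list. A fold of 10 or more was reached by 49 members (1.48%, exact interval 1.09% to 1.95%), against 2.04% of the other peaks and 1.96% of the whole list, so at this higher limit members were not ahead. The highest fold in the whole list, 41.0, lay elsewhere.

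Depth was moderate and set most members well above the smallest pileup listed. The IP pileup is the number of IP reads covering the summit. It was recovered with the input background, the expected number of reads from the input scaled to the IP, from the authors' fold and p-value. The median pileup was 17 reads over members (quartiles 14 and 21, range 5 to 136), against 10 over all other peaks (quartiles 7 and 18). The median input background was 2.82 over members (quartiles 1.91 and 3.95), against 1.35 over all other peaks. In the 200 kb below the band the medians were near those of members, 16 reads over a background of 2.26. Most members, 2081 of them, had 10 to 19 reads, 1103 had 20 to 39, 80 had 40 or more and 53 had fewer than 10. Both libraries were therefore deeper at members than at the typical peak, and the IP exceeded its background by more.

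The source of the input background also differed from the rest of the list. Only 4 members (0.121%, exact interval 0.0329% to 0.308%) had a background at its genome-wide minimum of 1.05, whereas 34.1% of all other peaks did. At 1942 members (58.5%) the background was a whole number of input reads in a window of fragment length at the summit, each worth 0.564 IP reads, against 44.2% of the other peaks. This fragment length is the peak caller's, taken here as the smallest listed width, 69 bp. It is shorter than the sonicated size of about 300 to 400 bp. At 643 members (19.4%) it matched a window of 1 kb, against 11.9% of the other peaks, and at 728 (21.9%) one of 10 kb, against 9.85%. Where the fragment-length window set the background, median fold was 4.31 over members and 3.76 over the other peaks. With the 1 kb window it was 5.36 over members and 4.44 over the others, and with the 10 kb window 5.50 and 4.36. Since the peak caller divides by the largest of these backgrounds, fold and background are tied by construction. Across the 3317 members Spearman's rho was −0.59 between fold and background, 0.49 between pileup and background and 0.35 between fold and pileup, all from the same pair of libraries.

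**Figure D3:**
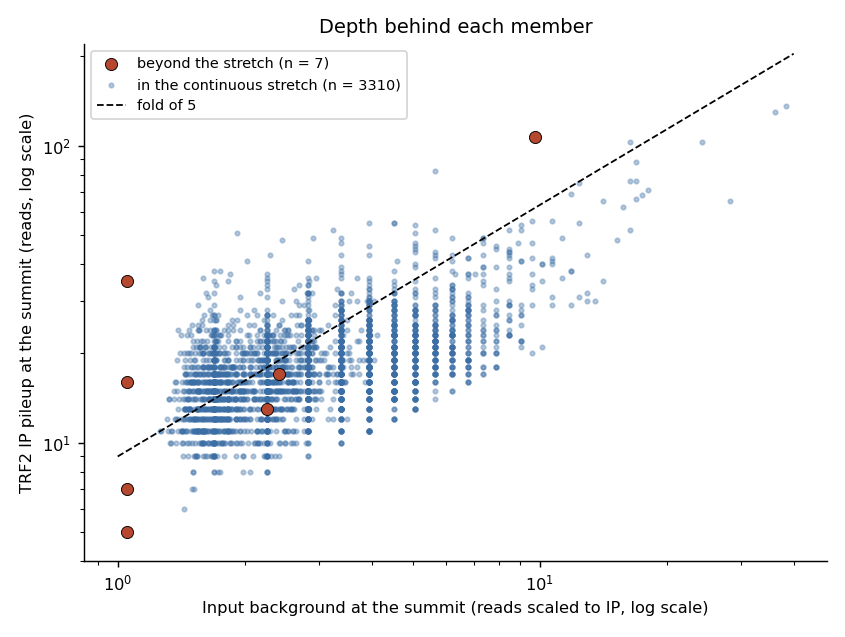
IP pileup in reads (vertical axis, log scale) against input background in reads scaled to the IP (horizontal axis, log scale) at each member's summit; small points are the 3310 members of the stretch, large points the 7 beyond it, and the dashed line marks a fold of 5. The largest pileup of 136 reads sits over the highest background of 38.4, and 4 of the 7 large points lie at the lowest background.

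The strongest members lay mostly in the lower part of the stretch, 4 of them between 17323411 and 17355438, and none was above 17511011 within the stretch. The 10 of highest fold ran from 13.3 to 17.8, with 35 to 51 IP reads over an input background of 1.05 to 2.45. The highest fold, 17.8, belonged to a peak of 926 bp at 17354513 to 17355438, with 51 reads over 1.92. Folds of 14.5 and 13.3 lay within 20 kb of it, at 17334990 to 17335229 (38 reads) and 17337801 to 17338036 (43 reads), and one of 13.4 at 17323411 to 17323789 (37 reads). Near the start of the band, peaks at 16669340 to 16669646 and 16652230 to 16652891 had folds of 14.3 (36 reads) and 14.2 (38 reads). The other 3 of the stretch were at 17165383 to 17165561 (fold 14.2, 48 reads), 17510613 to 17511011 (13.9, 41 reads) and 16787894 to 16788247 (13.4, 35 reads). The remaining one of the 10 lay beyond the stretch and is described with the gene loci.

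Deeper members had higher folds in general, with a median fold of 5.46 in the deepest 829 members and 4.30 in the shallowest 830, and 86.4% against 12.7% of them at a −log10 q of at least 5. The deepest summits of the stretch were an exception. The largest pileup, 136 reads at 17644865 to 17644982, stood over an input background of 38.4 and had a fold of 3.48. The next, 130 reads at 17751981 to 17752082, stood over 36.1 with a fold of 3.53. Both are close to the largest pileup in the whole list, 138 reads. The largest input background in the whole list was 77.8, and the fragment length taken here was 69 bp. Whether a limit on reads per position capped these pileups or their backgrounds, and so their folds, was not tested. The third-largest pileup, 107 reads at 18212072 to 18212181 beyond the stretch, stood over 9.73 and had a fold of 10.1. A background above 10 was found at 39 members (1.18%, exact interval 0.837% to 1.60%), against 7.56% of all other peaks and 6.69% of the whole list.

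Strength hardly carried over from one peak to the next. Over the 3309 neighbouring pairs of the stretch, Spearman's rho was 0.05 for fold, 0.01 for width and 0.10 for pileup, and 0.28 for the input background, whose 1 kb and 10 kb windows overlap between neighbours. These are descriptions of 1 pair of libraries. The fold of a member therefore said little about that of the next.

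Input background, IP pileup and fold all differed between the lower and the upper part of the stretch. The split that best separated the background into 2 levels fell between the summits at 17467829 and 17467996, 968 kb into the band. Upper members, 1206 in number, had a median background of 3.38 (quartiles 2.61 and 4.51), against 2.26 (1.69 and 3.38) at 2104 lower members. The median pileup was 19 reads (quartiles 16 and 23) above the split and 17 (14 and 20) below it. The median fold was 4.45 above it (quartiles 3.63 and 5.47) and 5.01 below it (4.09 and 6.18). A fold of 5 or more was held by 34.8% of upper members (exact interval 32.1% to 37.6%) and by 50.2% of lower ones (48.1% to 52.4%). Summit density was 207 per 100 kb above the split and 217 below it, the median width 173 and 169 bp, and the covered share 45.4% and 46.0%. Of the 10 strongest members 1 lay above the split and 8 below it, where 2104 of the 3310 members of the stretch lay. A fold of 10 or more was held by 39 lower members (1.85%) and 8 upper ones (0.663%). The split was placed on these same values, so the difference is a description without a test, and the fold has the input background as its divisor.

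**Figure D4:**
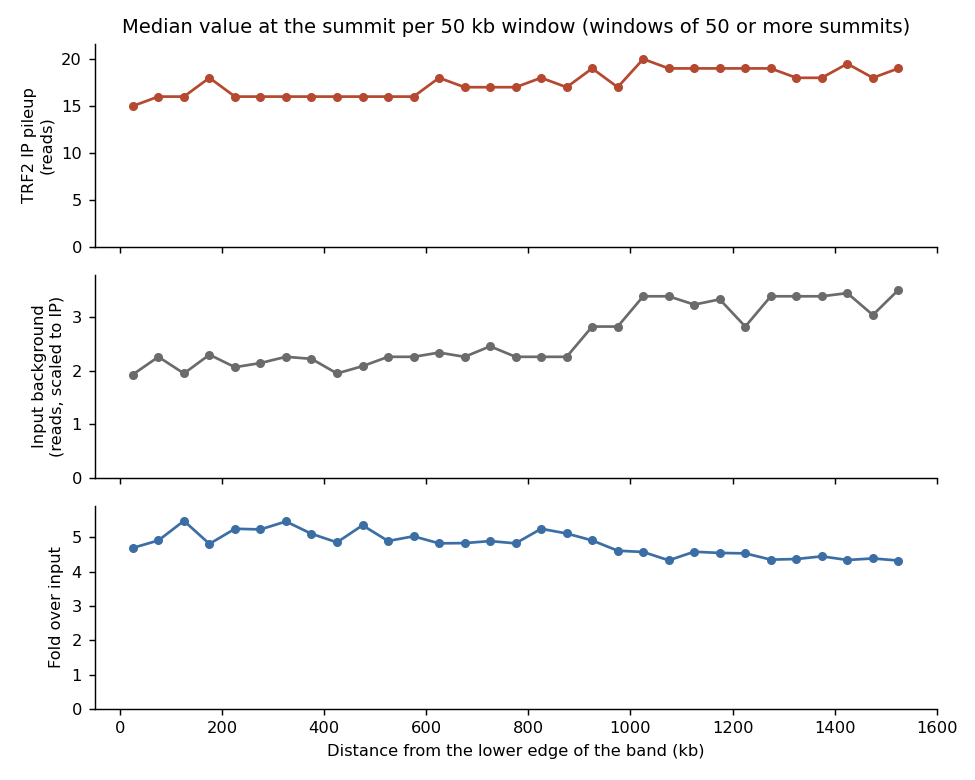
Median IP pileup in reads (top), median input background in reads scaled to the IP (middle) and median fold over input (bottom) in 31 windows of 50 kb with at least 50 summits (vertical axes), against the distance from the lower edge of the band in kb (horizontal axis). Window medians range from 15 to 20 reads, from 1.93 to 3.50 and from 4.33 to 5.49, with the higher backgrounds and the lower folds in the right part.

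Genes were found only in the sparse remainder of the band. The RefSeq annotation of the same assembly (GRCh38.p14) lists 31 genes there, 27 of them pseudogenes, 3 long non-coding RNAs and none protein-coding, and none starts within the stretch. The first, LOC124903223, starts at 18176737, 126 kb past the end of the stretch, and 3311 members lie below it. Of the 7 members beyond the stretch, 6 lay inside a gene, in 3 genes. The share of this remainder that gene spans cover was not calculated, so the count is not read as a preference for genes. The table gives gene spans without strand or exons, so exonic or intronic position was not assigned.

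TERF1P5, a pseudogene of TERF1, the gene for the other shelterin protein that binds double-stranded telomere repeats (TRF1), held 3 of them. It spans 18680495 to 18683302, and the summits lay 174, 385 and 903 bp from its lower coordinate. The peak at 18680624 to 18680713 had a fold of 4.30, with 13 IP reads over an input background of 2.26. The middle one, at 18680849 to 18681193, had a fold of 8.29 with 16 reads over 1.05. The last, at 18681338 to 18681456, had a fold of 17.6 with 35 reads over 1.05, the second-highest fold of all members. Fold thus increased along the 0.833 kb that these 3 peaks span, with the input at its genome-wide minimum at the stronger pair. From the first to the second the pileup rose only from 13 to 16 reads, while the background fell from 2.26 to 1.05. No other peak lay within 465 kb below the 3 peaks inside the band.

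FAM230C, a long non-coding RNA gene at 18195297 to 18232016, held 2 members, 16.8 and 19.9 kb from its lower coordinate. The one at 18212072 to 18212181 had 107 reads over a background of 9.73, a fold of 10.1 and the highest −log10 q of all members, 66.0. The other, at 18215179 to 18215254, had 17 reads over 2.41 and a fold of 5.27. At the edge of LOC124903223, peaks at 18176553 to 18176621 and 18177088 to 18177156, of which the second lay inside it, were at the limit of the list, with 7 and 5 reads over 1.05, folds of 3.90 and 2.93 and −log10 q of 1.53 and 0.230.

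Set beside the next most peak-rich centromeres, chromosome 13 was denser and more continuous. It had 1382 peaks per Mb of band (exact Poisson interval 1335 to 1429.9), chromosome 1 had 584 (559 to 610.4), chromosome 8 had 379 (360.0 to 398) and chromosome 20 had 243 (229 to 258). These densities differ by far more than their counting error, and no replicate gives their biological spread. Peaks covered 29.6% of the chromosome 13 bands, 8.60% of those of chromosome 1, 5.54% on chromosome 8 and 2.93% on chromosome 20. Joined at 5 kb, members fell into 4 clusters, against 58 on chromosome 1, 28 on chromosome 8 and 177 on chromosome 20. The median distance between neighbouring summits was 414 bp on chromosome 13, 1038 bp on chromosome 1, 970.0 bp on chromosome 8 and 1680.0 bp on chromosome 20. For windows of 100 kb, a limit of 191 summits was taken from the sparsest window that the stretch filled in the band. The 15 filled windows of the band pass it by construction. Among 3500 windows with a summit on the primary chromosomes, 17 reached this limit and all 17 were on chromosome 13, 15 of them in the band. The fullest elsewhere, on chromosome 9 from 60600001 to 60700000, held 136.

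Depth did not follow the same order. The median pileup was 17 reads on chromosome 13, 27 on chromosome 1, 9 on chromosome 8 and 11 on chromosome 20, and the median input background was 2.82 on chromosome 13, 6.20 on chromosome 1, 1.13 on chromosome 8 and 1.69 on chromosome 20. Median fold was 4.79 on chromosome 13, 3.69 on chromosome 1, 4.23 on chromosome 8 and 3.97 on chromosome 20. A −log10 q of 5 or more was reached by 53.8% of members, by 51.4% of the chromosome 1 peaks (exact interval 49.2% to 53.6%), by 13.7% on chromosome 8 and by 13.6% on chromosome 20. Chromosome 13 members were thus intermediate in both IP and input depth and highest of the 4 in median fold and width. The centromere bands of chromosome 21, whose array family chromosome 13 shares, held 19 peaks in a single window of 100 kb, or 9.05 per Mb (5.45 to 14.1), with a median pileup of 9 reads and a median fold of 4.10. Whether reads of the chromosome 21 array were placed on chromosome 13 was not tested.

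**Figure D5:**
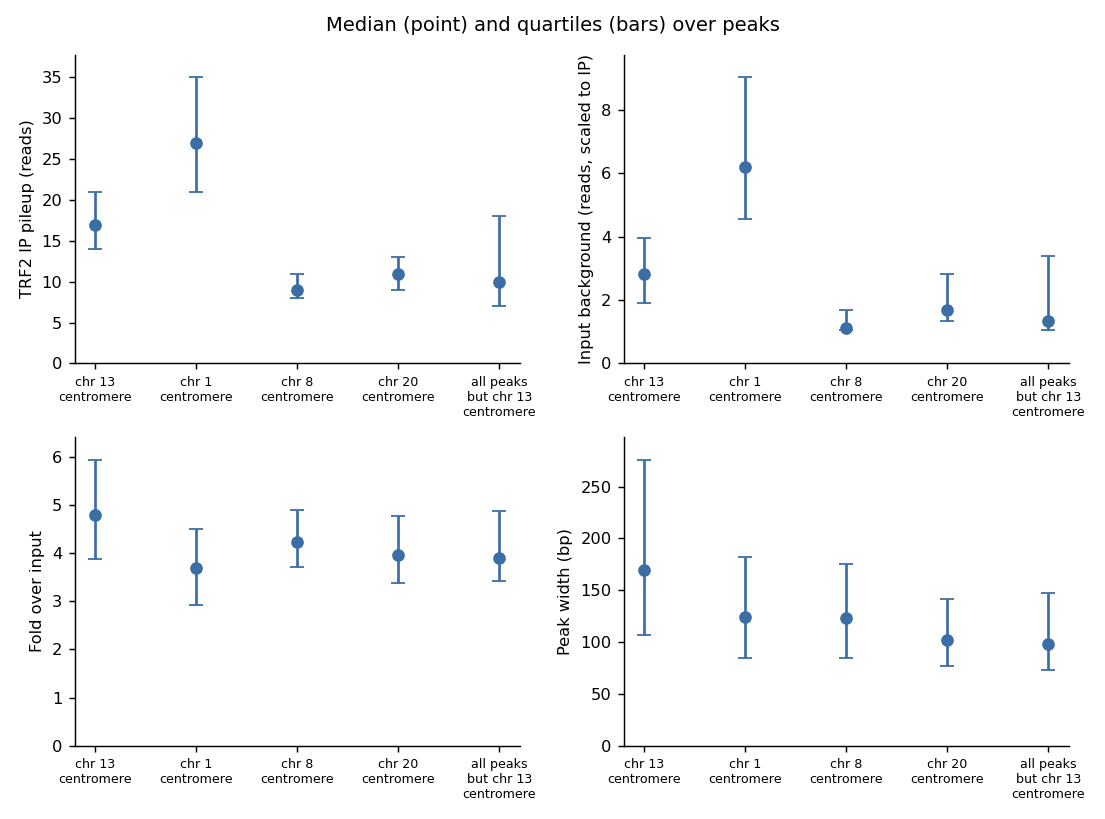
Median (point) and quartiles (bars) over peaks of IP pileup in reads, input background in reads scaled to the IP, fold over input and peak width in bp (vertical axes), for the centromere peaks of chromosomes 13, 1, 8 and 20 and for all peaks but those of the chromosome 13 centromere (horizontal axis). Chromosome 13 has the highest median fold (4.79) and width (170.0 bp) and chromosome 1 the highest pileup (27 reads) and background (6.20).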

How the data were processed

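The only file was the authors' peak list of 1 TRF2 IP library over 1 input library from HCT116. Tools named in the submitters' processing notes are MACS2 2.1.0, Bowtie2 2.3.2, ChIPseeker 1.36.0 and HOMER, with hg38 (GRCh38) as the build; their settings and the number of reads per library are unknown here. The deposited score is 10 times the −log10 p, cut to a whole number, in 100% of rows. The deposited fold is a ratio of IP pileup to input background at the summit. The −log10 p-value is the authors' at the same base, and so is their −log10 q-value. None was recalculated.

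Pileup and background were recovered with MACS2's forms, fold as pileup plus 1 over background plus 1 and p as the Poisson tail beyond the pileup. A whole pileup matched within 0.001 of −log10 p in 100% of peaks (largest residual 0.00014). The precision of each value is limited by these pileups. Bands came from circlize 0.4.16 (R 4.3.3). Calculations ran in Python 3.11.15 with scipy 1.17.1, numpy 2.4.6, matplotlib 3.10.9 and pandas 2.3.3, with recovery, repeat search and split tested on simulated data. The simulated repeat had a length that was among the trial lengths, so lengths between the steps were not tested. Merging of close peaks was not simulated. Intervals are exact (Clopper-Pearson or Poisson, 95%). Coordinates are 1-based. No genome sequence was used, so base composition, repeat copies and motifs were not analysed here. Members, limits and comparisons were chosen with earlier results of these data known. Named members follow a rule: the 10 of highest fold, the 3 widest, the 3 of highest pileup, those at the edges, the 3 densest windows, the clusters and the genes with a summit within 3 kb; the longest gap, the sparsest window and the split were chosen after their values were seen.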

Additional observations from a re-analysis of the deposited data

How the results depend on the processing

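Of 27 alternatives, 15 left a result within its counting interval, within 1.5 times a count, or, for the split, within 5 kb or the width of the median's interval. Limiting members to a −log10 q of 5 or more left 1783, with a median spacing of 676 bp, width of 213 bp, fold of 5.83 and pileup of 20 reads; these shifts follow from taking fewer and stronger peaks. A fold of 5 or more left 1481. Joining summits up to 2 kb gave 7 clusters in place of 4. Without the 1 that the peak caller adds to pileup and background the median fold was 6.31. The best repeat length of all members, 293 bp, was 141.5 bp from interval midpoints, 506.25 bp from the stronger members, 174.25 bp in p11.1 and 230.0 bp in q11. The best length thus moved with the positions and subset used, the cause was not tested, and no length is read as a repeat. The split in input background and the lower fold above it, both chosen after seeing the data, kept their place and direction among stronger members (17469548; −0.63 against −0.57). Depth limits weak peaks: at the minimum background 5 reads were listed. No paired analysis was possible because there was 1 library of each kind, and for the same reason no replicate could be left out.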
